A study of Mus musculus with 20 samples.

Results

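Residual CTCF and RAD21 were compared in mouse embryonic stem cells that lacked MAZ and had been depleted of CTCF. Chromatin immunoprecipitation with sequencing (ChIP-seq) gave 2570 CTCF peaks and 6400 RAD21 peaks in these cells, 8970 of the 136043 peaks in the 12 lists of the series. A RAD21 peak that overlapped a CTCF peak by at least 1 bp was called RAD21 with CTCF (2015 peaks), and any other was called RAD21 without CTCF (4385 peaks). Seen from the CTCF list, 2016 peaks overlapped RAD21 and 554 were CTCF without RAD21. A RAD21 peak and a CTCF peak that overlap are counted once in each list.

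The cells were of the E14 line, in which CTCF carries an auxin-inducible degron that has the protein destroyed once auxin is added. Maz had been knocked out by genome editing, and the titles name a single knockout line, B2, so that the knockout rests on 1 clone. The cells grew with LIF and 2 kinase inhibitors (2i) and had received auxin for 2 days (ΔCTCF/ΔMAZ). The reference lists came from the same knockout line without auxin (ΔMAZ), and from parental degron cells without auxin (WT) or with 2 days of auxin (ΔCTCF), so all cells carried the degron. There was 1 list per antibody and condition and thus no replicate, and every difference given here is between single libraries. Intervals are 95% intervals, by Wilson's method for shares, from order statistics for medians and by the Robins-Breslow-Greenland method for odds ratios, and cover counting error over peaks only. Peak lists hold no expression values, so the stem cell identity was not examined with marker genes.

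CTCF is a zinc finger protein that binds a long asymmetric DNA motif. RAD21 is the kleisin subunit of cohesin, the ring complex that extrudes chromatin loops and that is halted by CTCF, mainly when it arrives from the side of the CTCF N terminus. Cohesin is loaded at many places, among them active promoters and enhancers, and can therefore also be found away from CTCF. MAZ is a zinc finger protein that binds G-rich promoter sequence.

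The sequences at a few strong sites show what a CTCF core and a GC box looked like in each class, and the sites were picked for holding one. Each line gives 101 bases around the summit on the plus strand of mm10, from the RefSeq copy of GRCm38.p6. The capitals mark a CTCF core, searched on both strands as CC, then any 3 bases, then AGNNGGC, or, on the lines of Ubtf and Zc3h13, a GC box (GGGCGGG on either strand). The first pair are the strongest RAD21 with CTCF sites that hold a core, at chr4:41050824-41050924 and chr6:86806560-86806660. The next pair are the strongest sites with a core where RAD21 was called without CTCF although CTCF had been called before auxin, at chr9:72408441-72408541 and chr1:36784796-36784896. Ubtf and Zc3h13 are the strongest promoter sites with a GC box among RAD21 peaks that had neither protein before auxin, at chr11:102316795-102316895 and chr14:75284229-75284329. The last pair are the strongest CTCF without RAD21 sites with a core, at chr17:28927434-28927534 and chr1:82839333-82839433.
Aqp7: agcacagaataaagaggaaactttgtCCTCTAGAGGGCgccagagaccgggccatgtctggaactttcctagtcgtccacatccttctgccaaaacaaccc
Anxa4: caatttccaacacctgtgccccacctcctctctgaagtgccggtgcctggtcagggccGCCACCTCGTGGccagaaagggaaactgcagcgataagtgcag
BC065403: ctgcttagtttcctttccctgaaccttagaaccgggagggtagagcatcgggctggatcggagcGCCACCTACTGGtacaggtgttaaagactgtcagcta
Zap70: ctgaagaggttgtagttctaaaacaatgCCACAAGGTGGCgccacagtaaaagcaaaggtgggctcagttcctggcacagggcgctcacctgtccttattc
Ubtf: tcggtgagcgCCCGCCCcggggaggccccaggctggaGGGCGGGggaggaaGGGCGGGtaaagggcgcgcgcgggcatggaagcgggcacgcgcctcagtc
Zc3h13: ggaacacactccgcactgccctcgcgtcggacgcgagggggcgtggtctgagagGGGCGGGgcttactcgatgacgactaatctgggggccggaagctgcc
Gm16191: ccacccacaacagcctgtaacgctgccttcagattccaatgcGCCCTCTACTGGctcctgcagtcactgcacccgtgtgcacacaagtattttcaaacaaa
Agfg1: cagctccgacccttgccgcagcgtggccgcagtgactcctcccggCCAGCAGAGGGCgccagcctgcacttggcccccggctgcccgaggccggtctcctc

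Most residual CTCF peaks held RAD21, and in the whole RAD21 list most peaks held no called CTCF. RAD21 overlapped 78.4% (76.8 to 80.0) of the residual CTCF peaks, and residual CTCF overlapped 31.5% (30.4 to 32.6) of the RAD21 peaks. The second share depended on the length of the RAD21 list, and with only as many of the strongest RAD21 peaks as there were CTCF peaks it was 58.9%. Overlap rose with strength in both lists. Strength was the fold enrichment at the summit, the ratio of the pileup of reads to the local background, ranked within its own list and divided into 5 equal groups. From the weakest to the strongest group, the share of RAD21 peaks with CTCF was 6.25%, 10.9%, 22.5%, 44.5% and 73.4%. The share of CTCF peaks with RAD21 went from 61.5% in the weakest group through 78.8% in the middle group to 95.5% in the strongest.

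RAD21 with CTCF was the stronger and broader class. Its median fold enrichment was 9.81 (quartiles 7.32 to 14.1, n = 2015), against 5.88 (5.04 to 7.32, n = 4385) for RAD21 without CTCF, and median widths were 290 and 227 bp. The median RAD21 with CTCF peak ranked at percentile 78.1 of the RAD21 list, and the median RAD21 without CTCF peak at percentile 37.3. In reads, the median pileup at the summit was 23 and 13. Residual CTCF peaks with RAD21 had a median fold of 8.84 (7.53 to 11.9) and ranked at percentile 56.1 of the CTCF list, and those without RAD21 had a median of 7.51 (6.40 to 8.52) and ranked at percentile 30.2. Across the 2016 shared pairs, CTCF fold and RAD21 fold correlated with r = 0.53 on the log2 scale and rho = 0.45, a description over sites that share 2 libraries and their local background. At these pileups a site just under the calling limit in either library counts as lacking that protein, and such sites were not told apart from unoccupied ones.

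**Figure D1:**
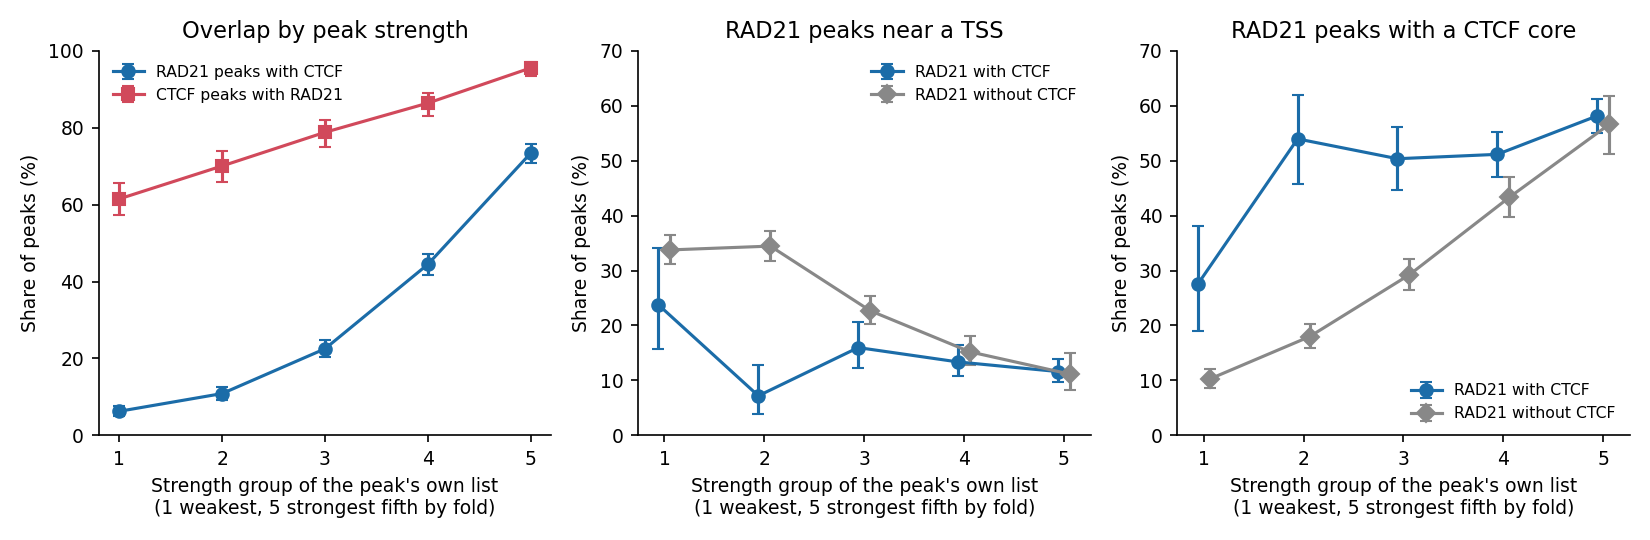
Left, share of RAD21 peaks with residual CTCF and of residual CTCF peaks with RAD21 in 5 equal strength groups of each list, and middle and right, share of RAD21 peaks within 1 kb of a transcription start site (TSS) and with a CTCF core within 50 bp of the summit, for RAD21 with and without CTCF. Points are shares in percent and bars Wilson 95% intervals; overlap rose from 6.25% to 73.4% for RAD21 and from 61.5% to 95.5% for CTCF, and in the strongest group RAD21 with and without CTCF had almost the same share near a TSS and with a core.

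At shared sites the summits of both proteins lay close together, and where a single core gave a direction RAD21 lay mostly on the 3′ side of CTCF. The median distance between summits was 35 bp (quartiles 18 to 55, n = 2016), 69.6% of pairs lay within 50 bp, 95.9% lay within 100 bp, and 9 pairs were over 200 bp apart. At 1156 shared sites a single CTCF core lay within 50 bp of the CTCF summit and gave the site a direction, read along the strand that carries CC first. Relative to the centre of the core, the median CTCF summit lay at −8.5 bp and the median RAD21 summit at 22.5 bp, on the 3′ side. RAD21 lay 3′ of CTCF at 964 of these sites (83.4%, 81.1 to 85.4), 5′ of it at 179, and at the same base at 13. The share was 81.9% with the core on the plus strand and 84.8% with the core on the minus strand, whereas over all 2016 pairs, with no regard to the core, RAD21 had the higher coordinate in 48.0% (45.8 to 50.2). When the core was sought instead within 100 bp of the midpoint of both summits, the median shift was 32.5 bp (n = 1250), against 30.5 bp (95% interval of the median 29 to 33) with the first search.

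The same shift was measured in the other conditions. The median RAD21 summit lay 29 bp (29 to 30, n = 9559) 3′ of CTCF in ΔMAZ, 27 bp (27 to 28, n = 9662) in WT, and 23 bp (20 to 26, n = 1181) in ΔCTCF. The shift in ΔCTCF/ΔMAZ was thus close to that in ΔMAZ, and larger than in WT and in ΔCTCF, whose intervals of the median did not overlap its own, in single libraries.

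**Figure D2:**
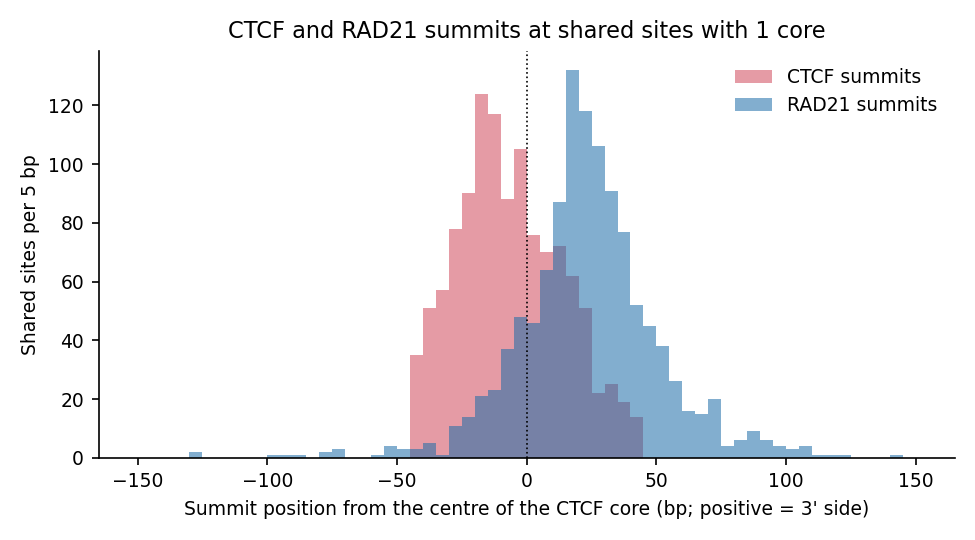
Number of shared sites per 5 bp by the position of the CTCF summit and of the RAD21 summit relative to the centre of the CTCF core, in bp along the core, for the 1156 shared sites with a single core within 50 bp of the CTCF summit. CTCF summits, which the search keeps within 50 bp of the core, centre at −8.5 bp and RAD21 summits at 22.5 bp.

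Before auxin, nearly every site of RAD21 with CTCF had both proteins, while RAD21 without CTCF was a mixed class. Of all 6400 RAD21 peaks, 73.1% were called for RAD21 in ΔMAZ and 65.6% for CTCF in ΔMAZ. For RAD21 with CTCF these shares were 99.4% (2003 peaks) and 99.9% (2012 peaks). For RAD21 without CTCF they were 61.0% (59.6 to 62.5; 2676 peaks) and 49.8% (48.3 to 51.3; 2184 peaks). These shares moved with strength. In the weakest of the 5 groups RAD21 without CTCF was called for RAD21 at 35.3% (32.7 to 38.1) and for CTCF at 20.4% (18.2 to 22.8), against 91.2% and 98.8% for RAD21 with CTCF. In the strongest group it was called at 98.8% (97.0 to 99.5) and 96.2% (93.6 to 97.8), against 100% and 99.9%. With the RAD21 list reduced to its strongest peaks, to the length of the CTCF list, RAD21 without CTCF was called at 93.5% and 86.9%. Nearly all of RAD21 without CTCF fell into 3 groups. Both proteins had been called before auxin at 2148 peaks (49.0%), RAD21 alone at 528 peaks (12%), and neither at 1673 peaks (38.2%). CTCF alone had been called at the other 36 peaks.

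The 2148 peaks that had lost only their CTCF call lay near a TSS about as often as RAD21 with CTCF, held a core slightly less often, and had been weaker CTCF sites. A CTCF core lay within 50 bp of the summit in 48.3% (46.2 to 50.4) of them, in 53.5% (51.4 to 55.7) of RAD21 with CTCF, and in 2.16% and 2.23% of windows of the same length 1000 bp beside those summits. Within 1 kb of a TSS lay 11.6% (10.4 to 13.1) and 12.9% (11.5 to 14.4). In the CTCF list of ΔMAZ their median percentile of fold was 77.8 (95% interval 76.8 to 78.6), against 91.5 (90.9 to 92.0) for RAD21 with CTCF. In the RAD21 list of ΔMAZ the medians were 83.9 (82.9 to 84.9) and 88.6 (87.9 to 89.2). Before auxin the classes thus stood further apart in CTCF rank than in RAD21 rank. Both had a RAD21 call after auxin and were split by the CTCF call after auxin, so this difference is not independent of the class definition.

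The 8 strongest RAD21 without CTCF peaks, chosen for their RAD21 fold after auxin, all belonged to this group. Inside BC065403, 777 bp upstream of the nearest TSS, that of Gm27255, RAD21 fold was 27.9 after auxin and 46.5 in ΔMAZ, and it was 49.1 in WT and 27.4 in ΔCTCF. CTCF there had a fold of 14.5 in ΔMAZ and 9.55 in ΔCTCF, and no call in ΔCTCF/ΔMAZ. RAD21 fold was 26.4 after auxin against 33.6 before at the site 93512 bp upstream of Pdk4, which encodes a kinase that inhibits pyruvate dehydrogenase. The site 23048 bp from the Zap70 TSS, a T cell receptor kinase gene, went from 61.2 to 25.2, and that near Trp53rkb from 68.7 to 23.8. At 1700069L16Rik, 100 bp inside the gene, RAD21 fold was almost the same before and after auxin, 24.1 and 24.0, with the lowest CTCF fold of the 8 before auxin, 10.0. In an intron of Aox2, an aldehyde oxidase gene, RAD21 went from 48.3 to 25.5, and neither auxin list called CTCF. Near Slc35f5 it went from 35.3 to 23.5 and in Gm38399 from 51.6 to 22.8. A core lay at 6 of these 8 summits, and not at those near Pdk4 and in Aox2.

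The strongest sites of RAD21 with CTCF that are described here had RAD21 folds of 39.5 to 60.0. The peak 2735 bp upstream of Aqp7, a water and glycerol channel gene, had the highest RAD21 fold of both lists, 60.0, and a CTCF fold of 14.1, with the summits 38 bp apart. Its RAD21 fold was 92.7 in ΔMAZ, 97.8 in WT and 69.1 in ΔCTCF, the highest of each of these lists as well, while its CTCF fold was 20.7 in ΔMAZ. Near Anxa4, an annexin gene, RAD21 was at 53.1 and CTCF at 23.5, against 71.0 and 39.5 before auxin. At the site 46023 bp from the Commd7 TSS the RAD21 fold was 46.2 and the CTCF fold 10.8, the lowest CTCF value of the 7 sites described. The site near Gm5533 had the highest CTCF fold of the residual CTCF list, 38.3, with a RAD21 fold of 43.9. The remaining 3 sites lay near 9330182O14Rik (RAD21 53.1, CTCF 19.5), Gm26562 (42.6 and 28.2) and Chst3 (39.5 and 21.2). These 7 sites were all intergenic.

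**Figure D3:**
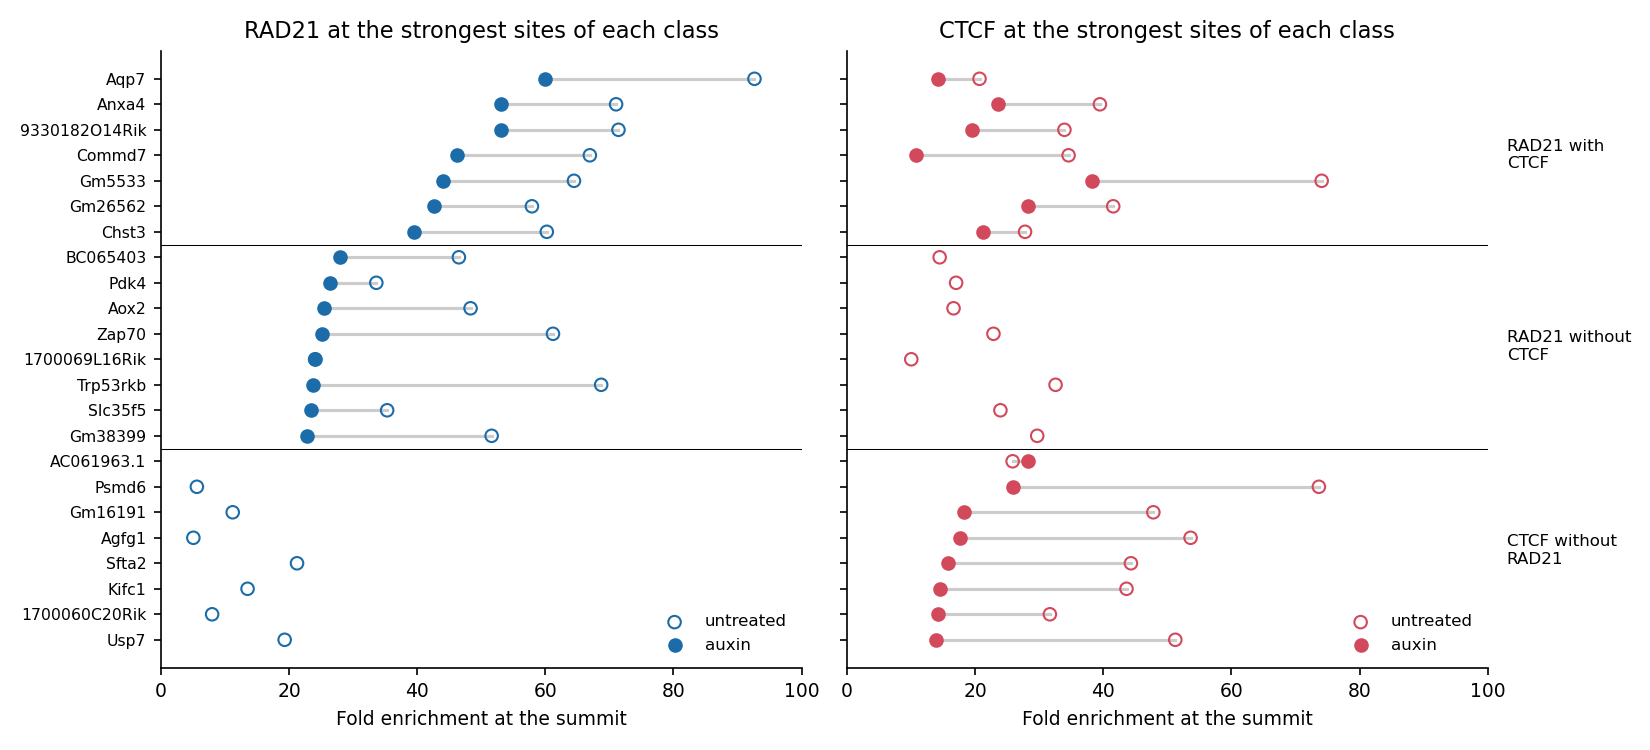
Fold enrichment of RAD21 (left) and CTCF (right) in untreated (open) and auxin-treated (filled) Maz knockout cells at the strongest sites of each class (7 of RAD21 with CTCF and 8 of each other class), with a line joining the values of a site and no point where no peak was called. Labels are the gene that holds the summit or else the one with the nearest TSS; AC061963.1 is the site 143 bp upstream of Kmt2a.

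RAD21 peaks with neither protein before auxin lay often at promoters and held few CTCF cores. Of these 1673 peaks, 42.9% (40.5 to 45.2) lay within 1 kb of a TSS, against 22.3% (21.3 to 23.4) of the whole RAD21 list and 33.8% of RAD21 without CTCF in the weakest strength group, and a core lay at 2.93% (2.22 to 3.85), close to the 2.24% (1.79 to 2.80) of windows beside them. They were weak, with a median fold of 5.14 (quartiles 4.62 to 5.84) and a maximum of 10.8, and their median pileup was 11 reads. Their RAD21 was called in WT at 5.92% and in ΔCTCF at 52.7% (50.3 to 55.1), against 69.1% and 82.9% of the whole RAD21 list. A MAZ peak of the parental cells (WT or ΔCTCF) overlapped 24.9% (22.9 to 27.0) of them, 44.4% (40.8 to 48.0) of those within 1 kb of a TSS and 10.3% (8.48 to 12.3) of the rest. MAZ itself is absent from the cells in which these RAD21 peaks were called.

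The 528 peaks with RAD21 alone before auxin held the highest share of former MAZ sites. A parental MAZ peak overlapped 36.9% (32.9 to 41.1) of them, against 4.1% where the CTCF call had been lost and 4.57% of RAD21 with CTCF. Within 1 kb of a TSS lay 34.8%, and 59.8% (52.6 to 66.6) of these promoter peaks overlapped a parental MAZ peak. Among promoter peaks of the other classes the share was 22.7% (18.0 to 28.2) for RAD21 with CTCF, 24.0% (19.1 to 29.7) where the CTCF call had been lost and 44.4% (40.8 to 48.0) where neither protein had been called. A core was found at 5.11%. They had been weak in ΔMAZ too, at a median percentile of 12.5 of its RAD21 list. Over the whole RAD21 list, the MAZ list of WT overlapped 9.36% of peaks and that of ΔCTCF 10%. For RAD21 without CTCF the shares were 12.2% and 13.0%, and for RAD21 with CTCF 3.18% and 3.57%. At matched strength, a parental MAZ peak overlapped 20% (12.7 to 30) of RAD21 with CTCF and 21.9% (19.7 to 24.3) of RAD21 without CTCF in the weakest of 5 groups, and 4.15% (3.05 to 5.63) and 3.52% (2.02 to 6.05) in the strongest. In the 3 groups between, the shares were 2.16%, 4.51% and 3.69% with CTCF and 20.3%, 14.0% and 9.0% without it. The weakest group held only 80 peaks of RAD21 with CTCF, 16 of them with a MAZ peak. In regions that the MAZ antibody enriched without MAZ lay 18 RAD21 with CTCF peaks, and their part in that share was not tested. Over the 5 groups, the Mantel-Haenszel odds ratio of RAD21 with CTCF to RAD21 without it was 0.42 (0.32 to 0.54) for a parental MAZ peak.

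**Figure D4:**
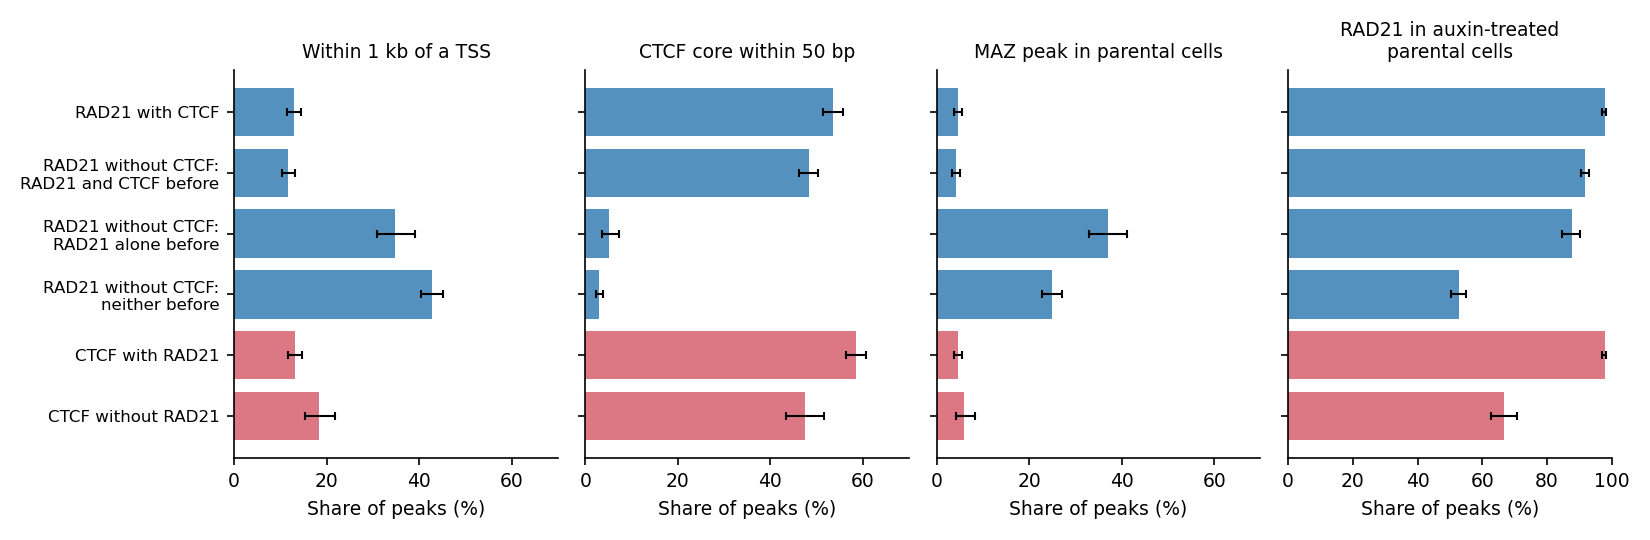
Share of peaks, in percent with Wilson 95% intervals, within 1 kb of a TSS, with a CTCF core within 50 bp of the summit, overlapping a MAZ peak of the parental cells, and called for RAD21 in auxin-treated parental cells, for the RAD21 classes (blue, with RAD21 without CTCF divided by its status before auxin) and the CTCF classes (red). Peaks with RAD21 and CTCF before auxin sit near RAD21 with CTCF in the first 3 panels, and peaks with neither before stand apart with 42.9% near a TSS and 2.93% with a core.

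Other short words were searched within 50 bp of the summit in the 1673 peaks with neither protein before, each on both strands, and compared with windows of the same length 1000 bp away on either side. The GC box (GGGCGGG), bound by SP and KLF proteins, was found at 12.4% (10.9 to 14.0) against 1.88% beside. The MAZ word GGGAGGG was found at 7.71% against 3.95%, the ETS word CCGGAAG at 3.41% against 0.448%, the NRF1 word GCGCATGC at 0.956% against 0.0897%, and the cyclic AMP element TGACGTCA at 0.897% against 0.0299%. The ESRRB word TCAAGGTCA was found at 1.02% against 0.359%, the KLF4 word GGGTGTGG at 1.73% against 0.837% and the octamer ATGCAAAT at 1.08% against 0.329%. The ZNF143 word ACTACAA (0.658% against 0.986%) and the YY1 word AAGATGGC (0.299% against 0.956%) were not more frequent at the summits. In RAD21 with CTCF the GC box was found at 3.23% against 1.34% beside. GC boxes were found at a higher share of peaks near a TSS than of the others in both classes, at 23.7% of the neither-before peaks near a TSS and 3.87% of the others, and at 12.3% and 1.88% of RAD21 with CTCF. The part of promoter position in these shares was not tested beyond this division. The windows beside were not matched for base composition. The summit windows of the neither-before peaks held a median of 3 CG dinucleotides (quartiles 1 to 8), against 1 (0 to 2) on either side. The part of base composition in the word shares was not tested.

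At Ubtf, the gene of an RNA polymerase I transcription factor, the RAD21 peak lay 140 bp from the TSS with a fold of 8.24, no RAD21 call in any other condition, and MAZ folds of 10.4 in WT and 14.7 in ΔCTCF. Its window holds 3 GC boxes. The peak 94 bp from the TSS of Zc3h13, a subunit gene of the m6A RNA methylation machinery, had a fold of 7.78 and no MAZ peak in parental cells. The strongest peaks of this group, whatever their sequence, lay near Igsf21 (10.8, intergenic), at the promoter of Klc2, a kinesin light chain gene (10.8), near E330017L17Rik (10.5), in Pdgfrl (10.5) and in Zmiz1 (10.1). These were named after their values were seen, as were the strongest with RAD21 alone before auxin, which lay near 5730419F03Rik (13.7, and 10.4 in ΔMAZ), at the Cacng2 promoter (12.8 and 4.12), in Gm47712 (11.9 and 13.4), at the Tbl1xr1 promoter (11.8 and 13.5) and at the Ptgfrn promoter (11.3 and 11.8).

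RAD21 with CTCF held a core more often in each strength group but the strongest, where the intervals overlapped. It lay near a TSS less often clearly only in the second group, and in every other group the intervals of the TSS shares overlapped. Over all peaks, 12.9% of RAD21 with CTCF and 26.7% (25.4 to 28.0) of RAD21 without CTCF lay within 1 kb of a TSS, and 55.7% and 40.7% were intergenic. In the weakest strength group the TSS shares were 23.8% (15.8 to 34.1) and 33.8% (31.1 to 36.5), in the second group 7.19% and 34.4%, and in the strongest 11.6% (9.71 to 13.8) and 11.1% (8.23 to 14.9). The core share was 27.5% against 10.3% in the weakest group and 58.1% (55 to 61.3) against 56.6% (51.3 to 61.8) in the strongest. Taken over the 5 strength groups, the Mantel-Haenszel odds ratio of RAD21 with CTCF to RAD21 without it was 0.64 (0.54 to 0.76) for a TSS and 1.76 (1.55 to 2.00) for a core. When the RAD21 list was reduced to as many of its strongest peaks as there were residual CTCF peaks, RAD21 without CTCF had 13.7% near a TSS and 48.0% with a core, against 12.3% and 55.4% for RAD21 with CTCF, and 58.9% of RAD21 peaks overlapped CTCF.

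Distances to the other protein are a description, since the classes are defined by not overlapping it. The nearest residual CTCF summit lay within 1000 bp of 41 of the 4385 peaks (0.935%), within 10 kb of 7.91%, and at a median of 181 kb. For CTCF without RAD21, a RAD21 summit lay within 1000 bp of 16 peaks (2.89%) and at a median of 48.3 kb, in a RAD21 list that holds more peaks.

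Residual CTCF without RAD21 lay mostly at sites that had held RAD21 before auxin, at lower rank than the shared sites. Of the whole residual CTCF list, 95.7% was called for RAD21 in ΔMAZ and 98.8% for CTCF in ΔMAZ. For the 554 peaks without RAD21 the shares were 82.3% (78.9 to 85.3; 456 peaks) and 94.9% (92.8 to 96.5; 526 peaks). At those 456 peaks the RAD21 fold in ΔMAZ had a median of 12.7 and percentile 63.2 (60.8 to 65.9), against 24.0 and percentile 88.6 at residual CTCF with RAD21. CTCF rank in ΔMAZ was more alike, at 87.6 (85.9 to 88.7) over the 526 peaks called for CTCF there and 91.5 (90.9 to 92.0) at residual CTCF with RAD21. Of the remaining 98 peaks, 70 had CTCF but no RAD21 call before auxin, and 28 had neither. Near a TSS lay 47.1% (35.9 to 58.7) of the 70 peaks, 14.3% of the 456 and 13.1% of residual CTCF with RAD21. In the strongest of the 5 strength groups of the CTCF list, 11 of the 23 peaks without RAD21 (47.8%, 29.2 to 67.0) and 15.9% (12.9 to 19.4) of those with it lay near a TSS. A core lay at 47.5% (43.3 to 51.6) of CTCF without RAD21 and at 58.4% (56.3 to 60.6) of CTCF with RAD21, at 31.4% of the 70 peaks and at 0 of the 28, whose Wilson interval reaches 12.1%.

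The strongest CTCF without RAD21 peak lay 143 bp upstream of Kmt2a, a histone H3 lysine methyltransferase gene, inside the transcript AC061963.1. Its CTCF fold was 28.3 in ΔCTCF/ΔMAZ, 25.8 in ΔMAZ, 16.8 in WT and 24.3 in ΔCTCF, so that it was not lower after auxin in either line. No RAD21 list called this site. MAZ was called there with a fold of 31.2 in WT, the highest of that MAZ list, and 34.1 in ΔCTCF, and no CTCF core lay within 50 bp. The peak 26 bp upstream of Psmd6, a proteasome subunit gene, had a CTCF fold of 25.9 after auxin and 73.7 before, with a RAD21 fold before auxin of only 5.60. In Gm16191 the CTCF fold went from 47.8 to 18.3 and at the Agfg1 promoter from 53.6 to 17.7, with RAD21 before auxin at 11.2 and 5.05. The other named sites had CTCF folds of 13.8 to 15.7 after auxin and RAD21 folds of 7.98 to 21.2 before it. These lay near Sfta2, 271 bp upstream of the mitotic kinesin gene Kifc1, near 1700060C20Rik and near the deubiquitinase gene Usp7. Of the 8 sites, 4 were at promoters.

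To see which sites with both proteins before auxin ended in which class, the 17376 RAD21 peaks of ΔMAZ that overlapped a CTCF peak of ΔMAZ were followed. After auxin both proteins were called at 2001 (11.5%, 11 to 12), RAD21 alone at 2151 (12.4%, 11.9 to 12.9), CTCF alone at 454 (2.61%, 2.39 to 2.86) and neither at 12770 (73.5%). Ranked into 5 groups by RAD21 fold before auxin, both proteins remained called at 1.01% of the weakest and 36.2% of the strongest group, and RAD21 alone at 1.78% and 31.6%. By CTCF fold before auxin, both remained called at 0.547% and 39.0%, RAD21 alone at 2.01% and 19.1%, and CTCF alone at 0.173% and 7.16%. By RAD21 fold, CTCF alone was called at 1.64%, 2.07%, 3.68%, 3.91% and 1.75% from the weakest to the strongest group, highest in the fourth. At the 1637 sites in the strongest group of both, both proteins were called at 56.5%, RAD21 alone at 24.7%, CTCF alone at 2.87% and neither at 15.9%. At the 203 sites with the strongest CTCF and the weakest RAD21, CTCF alone was called at 15.8% and both proteins at 5.42%. At the 553 sites with the strongest RAD21 and middle CTCF, RAD21 alone was called at 38.7% and both proteins at 13.7%. The libraries differed in read number. Relative to the RAD21 library after auxin, an index of depth (the lowest background divided by the narrowest peak) was 1.39 for RAD21 before auxin, 0.545 for CTCF after auxin and 0.429 for CTCF before it, and the part of depth in these shares was not tested.

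**Figure D5:**
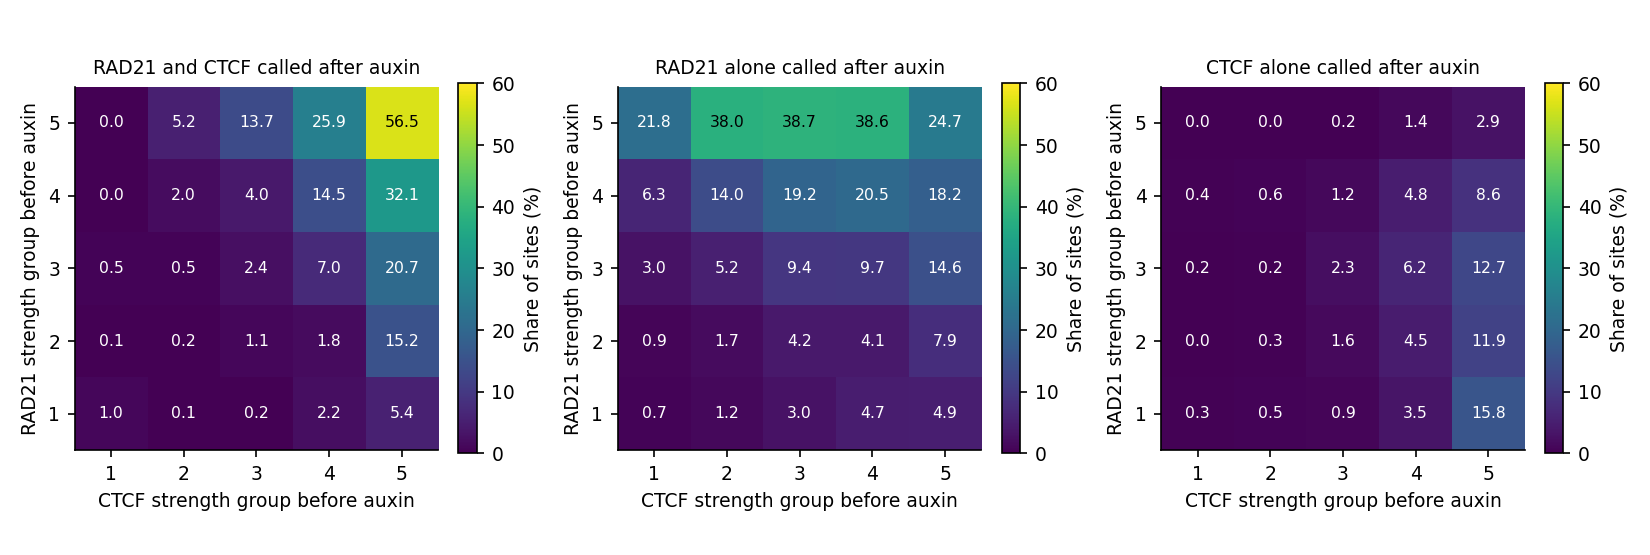
Share, in percent, of the 17376 sites with RAD21 and CTCF called in untreated Maz knockout cells at which both proteins, RAD21 alone or CTCF alone were called after auxin, by RAD21 strength group (vertical) and CTCF strength group (horizontal) before auxin, from 1 (weakest) to 5 (strongest). Both proteins remained called at 56.5% of sites strong in both, RAD21 alone mainly where RAD21 had been strong, and CTCF alone at 15.8% of the 203 sites with the strongest CTCF and the weakest RAD21.

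In parental cells after auxin, the same comparison gave like shares once the lists had equal lengths. Of the 17912 RAD21 peaks of ΔCTCF, 11.9% overlapped one of the 2381 CTCF peaks of ΔCTCF, and 89.7% of those CTCF peaks overlapped RAD21. With each list reduced to its strongest peaks, 6400 for RAD21 and 2381 for CTCF, residual CTCF overlapped 29.8% (28.7 to 31.0) of RAD21 in ΔCTCF/ΔMAZ and 29.8% (28.7 to 30.9) in ΔCTCF. RAD21 overlapped 80.2% (78.6 to 81.8) and 80.1% (78.4 to 81.6) of residual CTCF. Untreated lists reduced in the same way gave 25.4% (24.3 to 26.4) of RAD21 in ΔMAZ and 22.2% (21.2 to 23.2) in WT, and 68.0% and 59.5% of CTCF. In ΔMAZ this cut kept 6400 of 20872 RAD21 peaks and 2381 of 26053 CTCF peaks, so these shares describe the top ranks only. Against the full CTCF lists, 99.6% of the 6400 strongest RAD21 peaks in ΔMAZ and 99.3% in WT overlapped CTCF. The shared sites were themselves largely found in both lines. Of RAD21 with CTCF, 67.2% (65.1 to 69.2) was called for CTCF in ΔCTCF and 97.8% for RAD21, against 28% and 82.9% of the whole RAD21 list, and of RAD21 without CTCF 10.0% and 76.1%. Where the CTCF call had been lost in ΔCTCF/ΔMAZ, CTCF was called in ΔCTCF at 20.2% (18.6 to 22.0) of sites. CTCF without RAD21 was called for CTCF in ΔCTCF at 34.1% (30.3 to 38.2) and for RAD21 at 66.8% (62.8 to 70.6), against 60% and 91.1% of the residual CTCF list.

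In untreated parental cells, 98.5% of RAD21 with CTCF was called for RAD21 and 99.8% for CTCF, against 69.1% and 65.5% of the RAD21 list. RAD21 without CTCF was called at 55.7% and 49.8%. CTCF without RAD21 was called at 75.6% for RAD21 and 94.0% for CTCF, against 93.5% and 98.5% of the residual CTCF list. Before auxin RAD21 overlapped CTCF at 83.3% of its peaks in ΔMAZ and 86.0% in WT, and among the 6400 strongest at 99.6% and 99.3%.

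Genes were also looked up in 6 lists chosen for this tissue and these proteins, counting a gene where a summit lay in its body or up to 10 kb upstream. Over 21938 protein-coding genes, 5.09% held RAD21 with CTCF, 12.3% RAD21 without CTCF and 1.9% CTCF without RAD21. Of 16 pluripotency genes, 5 held RAD21 without CTCF and 0 held either other class. The strongest of their 7 peaks lay 2474 bp upstream of Sox2, with a RAD21 fold of 13.7 after and 26.1 before auxin, and CTCF had been called there before auxin with a fold of 17.8. Klf2 had a RAD21 fold of 7.72 at its promoter, against 4.35 before auxin, Esrrb held 3 peaks with folds of 5.71, 4.39 and 5.87 against 21.2, 5.14 and 7.38, Tbx3 had 4.80 against 10.2, and Dppa5a had 5.04 with no RAD21 call before auxin.

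Of 16 genes of cohesin and its regulators, 3 held RAD21 with CTCF, 2 held RAD21 without CTCF and 1 held CTCF without RAD21. At Pds5b, whose product helps release cohesin, the peak 20 bp upstream of the gene start had a RAD21 fold of 19.2 and a CTCF fold of 8.49, against 33.3 and 24.2 before auxin. The Rad21 promoter held a RAD21 peak of fold 4.64 that was absent from ΔMAZ, and a promoter of Stag1, a cohesin subunit gene, one of fold 5.49. Inside Ctcf itself all 6 residual CTCF peaks and all 4 RAD21 peaks had their summits in exons, 27358 to 44981 bp from the gene start. The MAZ list of WT held 7 peaks there, all in exons, and the knockout MAZ lists 0. Ctcf is the gene that was edited to carry the degron. Without Ctcf, 2 genes of this list held RAD21 with CTCF and 0 held CTCF without RAD21. Whether the exon peaks stand for binding at the gene itself was not tested.

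The Hox genes pattern the body axis. Of 39 Hox genes, several of which count the same site, 12 held RAD21 with CTCF at 8 sites, 3 held RAD21 without CTCF at 3 sites, and 3 held CTCF without RAD21 at 2 sites. The site 54 bp upstream of Hoxa5 had RAD21 at 16.5 and CTCF at 14.6, against 29.9 and 23.4 before auxin, and that inside Hoxa7 by 61 bp had 14.9 and 9.43, against 36.7 and 54.0. In the Hoxc cluster the site 200 bp upstream of Hoxc10 had 17.4 and 10.7, against 39.8 and 32.5. Both CTCF without RAD21 sites of the Hox genes lay near the Hoxa3 start, with CTCF folds of 7.24 and 7.34 and no RAD21 call before auxin. Hoxc13 had RAD21 without CTCF at its promoter, at 10.5 against 6.15 before auxin, and 8.38 for MAZ in WT.

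Of 56 clustered protocadherin genes, whose promoters CTCF and cohesin join to enhancers, 21 held a site, all within 8 sites on chromosome 18. At 3 of these RAD21 and CTCF were shared, at 4 RAD21 lay alone and at 1 CTCF lay alone, and many genes count the same site, since their bodies overlap. The site 44 bp upstream of Pcdhgb7 was the strongest, with RAD21 at 25.7 and CTCF at 31.0, against 32.5 and 53.0 before auxin, and 18 bp between the summits. At the 4 sites with RAD21 alone the fold was 5.95 to 8.24, against 6.53 to 19.3 before auxin. Of 16 imprinted genes, Meg3 held a shared site (RAD21 5.49, CTCF 7.66, against 15.0 and 16.5 before auxin), and Plagl1 (4.80) and Grb10 (5.14) held RAD21 without CTCF. Of 12 genes for zinc fingers that bind GC-rich sequence, Sp3 held RAD21 without CTCF at its promoter (5.24), where MAZ had a fold of 11.6 in WT. Maz held 2 CTCF without RAD21 peaks, with folds of 4.81 and 5.31, 1538 and 651 bp inside the gene.

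A few peaks lay in regions that the MAZ antibody also enriched without MAZ. There were 21 such RAD21 peaks, 18 of them with CTCF, and 21 such CTCF peaks. They were mostly low, with median folds of 2.49 and 4.18, and broad, with median widths of 437 and 377 bp, but they included the Pgk1 promoter and were left out of the named sites.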

How the data were processed

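ChIP-seq of CTCF, RAD21 and MAZ was analysed from 12 deposited peak lists, and 8 of the 20 samples came without a list and were not used here. The titles gave each sample its group. The authors added Drosophila spike-in chromatin, mapped reads to mm10 with Bowtie 2, filtered reads by quality and removed duplicates with SAMtools, and ran MACS on each library for narrow peaks. Whether an input control was used is not given in the sources used here, and no spike-in scaling was applied here. Peaks were ranked within a list by the deposited fold enrichment, the ratio of pileup to local background. The authors also deposited a score, which was not used, and −log10 p and −log10 q values, of which q served for an alternative and p for solving whole-number pileups (which gave the deposited −log10 p to within 0.01 for 100% of peaks in both auxin lists).

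Overlap of at least 1 bp counted as called, and a peak took the strongest partner. Genes and TSS came from GENCODE vM21 (protein-coding and long non-coding, basic set), and sequence from the RefSeq copy of GRCm38.p6, the same build, whose chromosome lengths held all peaks. A position was promoter within 1 kb of a TSS, then exon, intron or intergenic. The named sites are the 8 of highest fold per class outside the knockout MAZ lists, with the gene holding the summit or else the nearest TSS, plus sites of the 6 gene lists; 1 site of RAD21 with CTCF is not reported here. The class members, gene lists and words were chosen with earlier results of these data known. With 1 list per group no p-value was computed. Functions were tested on simulated data, and overlaps against bedtools 2.31.1. Python 3.11.15, pandas 2.3.3 and scipy 1.17.1 were used. Alternatives were a reciprocal overlap of 50%, a gap of up to 500 bp, −log10 q of at least 5, a RAD21 list of the CTCF list's length, removal of the knockout MAZ regions, 2.5 kb for a TSS, 100 bp or 4 words of 7 letters for the core, and ranks by −log10 q.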

Additional observations from a re-analysis of the deposited data

How the results depend on the processing

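Of 96 values under the alternatives, 57 stayed within the 95% interval of the value reported and 39 did not; none of them has a test. With a reciprocal overlap of 50%, CTCF lay at 29.6% of RAD21 peaks and RAD21 at 73.6% of CTCF peaks; calls for RAD21 in ΔMAZ were 95.3% for RAD21 with CTCF, 53.7% for RAD21 without CTCF and 58.8% for CTCF without RAD21, and calls for CTCF in ΔMAZ were 91.5%, 44.2% and 64.3%. A gap of up to 500 bp gave 62.9% and 51.5% for RAD21 without CTCF called for RAD21 and CTCF in ΔMAZ. With −log10 q of at least 5 in the lists compared, the overlaps were 39.7% and 76.4%, RAD21 without CTCF was called for RAD21 and CTCF in ΔMAZ at 75% and 68.9%, lay near a TSS at 20.2% and held a core at 35.8%, CTCF without RAD21 was called for CTCF at 97.5%, and RAD21 with CTCF had a median percentile of 72.8.

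With the RAD21 list reduced to the length of the CTCF list, the RAD21 without CTCF class shrank to the strongest peaks by construction and CTCF without RAD21 grew. Each overlap was then 58.9%. Calls for RAD21 in ΔMAZ were 99.9%, 93.5% and 89.7% in the order above, calls for CTCF in ΔMAZ were 86.9% for RAD21 without CTCF and 97.1% for CTCF without RAD21, TSS and core shares of RAD21 without CTCF were 13.7% and 48.0%, the core share of CTCF without RAD21 was 52.5%, and the median percentiles of the shared peaks were 61.6 for RAD21 and 63.8 for CTCF. Within 2.5 kb of a TSS lay 19.4% of RAD21 with CTCF, 32.1% of RAD21 without CTCF and 24.9% of CTCF without RAD21. Core shares in this order were 64.4%, 34.6% and 56.3% within 100 bp, and 63.4%, 35.8% and 54.2% with the 4 words of 7 letters. Leaving out the knockout MAZ regions or ranking by −log10 q moved 0 of the values beyond their intervals, and the median summit distance stayed within its interval in all 5 alternatives run on it. No paired analysis was possible because no group held more than 1 list.

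Limits: a missing call is not an absence, since summit pileups were often near 10 reads, and the libraries differ in depth, whose part was not tested. Without a replicate list, intervals cover counting over peaks only. The knockout is 1 clone, so clone and genotype cannot be told apart. The word and core searches see only the letters in short windows.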
